A study of Mus musculus with 2 samples.

Results

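Atxn7 and the start of Pgk1 are the regions described here, 2 places in the mouse genome where a control precipitation had many more reads than its partner library. Atxn7 was taken as chr14:14845005-14939810 and the Pgk1 start as chrX:103380000-103385000, both in the mm9 build. They were picked because the mock reads there exceeded the LUZP1 reads, so that excess is a description and nothing is tested on it. Of the 2734938 mock reads, 300 had their 5′ end in Atxn7 and 43 in the Pgk1 window. Of the 4214959 LUZP1 reads, 181 and 7 did.

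The reads come from chromatin immunoprecipitation and sequencing (ChIP-seq) in E14 cells, a mouse embryonic stem cell line of strain 129P2/OlaHsd, grown without feeder cells and used at passages 25 to 30. LUZP1, a leucine zipper protein, was precipitated with rabbit serum. The mock is labelled as made with no antibody, while the design text names GST for it. Each group is 1 library, so no difference has a replicate check. DNA reads give no expression level, and the cell type label was not checked against marker genes. The design also names a GCN5 antibody, which was not analysed here.

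Atxn7 encodes ataxin-7, a subunit of the deubiquitinating part of SAGA, a coactivator complex that also carries the GCN5 acetyltransferase. Expansion of a glutamine repeat in the human protein causes a spinocerebellar ataxia. Pgk1 is an X-linked gene active in nearly all cells, and encodes phosphoglycerate kinase, an enzyme of glycolysis. Its promoter is widely used to drive selection genes in mouse targeting constructs, and a complementary DNA, copied from mRNA, holds exons without introns. In reads from sheared chromosomes, exons and neighbouring introns are covered without regard to splice sites.

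The sequences that the Atxn7 reads covered are shown first, because their edges carry the result. Each is the stretch from the first to the last base of a run of mock reads, on the plus strand of mm9, which is the gene's own strand. Lower case marks exon bases and capitals mark intron bases that the reads ran into.
exon 2, chr14:14845826-14845881: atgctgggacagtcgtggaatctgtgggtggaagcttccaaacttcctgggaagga
exon 3, chr14:14846100-14846171: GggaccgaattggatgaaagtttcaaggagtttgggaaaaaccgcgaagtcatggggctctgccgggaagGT
exon 6, chr14:14921811-14921899: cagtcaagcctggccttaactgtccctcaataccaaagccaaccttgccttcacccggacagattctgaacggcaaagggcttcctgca
exon 7, chr14:14922535-14922586: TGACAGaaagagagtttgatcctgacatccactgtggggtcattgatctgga
exon 8, chr14:14927892-14927959: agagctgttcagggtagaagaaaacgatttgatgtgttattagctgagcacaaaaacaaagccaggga
Of these 5 runs, 3 lay wholly inside an exon. They are the larger of the 8 runs described below. The runs of exons 4 and 5 and the first run of exon 6 are not shown. With 12, 8 and 7 starts taken, they also lay wholly inside an exon, 18 to 197 bp from its edges. The run of exon 3 took in the whole exon, 1 intron base before it and 2 after it, and the run of exon 7 began 6 bases before its exon.

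For Pgk1, the 300 bases before the annotated transcript start are shown, because 32 of the 43 mock read 5′ ends in the window fell there, against 2 in LUZP1. Capitals mark a match to GGGCGG (here as CCGCCC on the plus strand) and a match to CCAAT, letters bound by factors of the Sp and NF-Y families.
Pgk1, chrX:103382139-103382438, plus strand: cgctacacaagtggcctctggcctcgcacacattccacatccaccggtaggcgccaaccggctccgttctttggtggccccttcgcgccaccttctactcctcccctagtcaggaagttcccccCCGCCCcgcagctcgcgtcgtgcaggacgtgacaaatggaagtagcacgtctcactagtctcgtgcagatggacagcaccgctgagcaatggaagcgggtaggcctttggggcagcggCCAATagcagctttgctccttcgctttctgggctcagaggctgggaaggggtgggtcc
Both strands were searched, and the motifs do not overlap. Of 32817 promoter sequences of 300 bases in the RefSeq table (GRCm38.p6), 35.6% hold GGGCGG and 37.4% hold CCAAT. In the same frame, 250 bases before to 50 after the start, Pgk1 holds 5 matches to GGGCGG, and 2.71% of promoters hold as many. TATAAA was not found in this frame of Pgk1, and 13.6% of promoters hold it. The 300 bases shown and the raised stretch described below each hold 1 match to GGGCGG, so the value of 5 does not describe the raised stretch. A match is a description of the letters only.

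In Atxn7 the mock excess lay in exons and was not seen over the introns as a whole. The annotation (GENCODE mouse release 1) gives the gene 1 transcript, with 12 exons on the plus strand. The 12 exons held 190 mock read 5′ ends and 15 LUZP1 ones in 6847 bp. Scaled to total reads, the mock was 19.5-fold higher, with a 95% counting interval of 11.5 to 35.6. All intervals of ratios are exact conditional binomial (Clopper-Pearson) intervals and cover counting error only. The introns held 110 mock and 166 LUZP1 5′ ends in 87959 bp, a scaled ratio of 1.02 (0.795 to 1.31). With reads placed by the midpoint of a 200 bp fragment, the intron ratio was 1.80, so the near-equal intron counts hold for 5′ ends.

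Within the mock library alone, exons had 27.7 reads per kb and introns 1.25, a density ratio of 22.2 (17.5 to 28.3). By fragment midpoints this ratio was 6.82. In the LUZP1 library the same values were 2.19 and 1.89 reads per kb, a ratio of 1.16 (0.635 to 1.97). The intron density of the mock was above its mean over chromosome 14, which was 0.969 reads per kb. That of LUZP1 was likewise above its mean of 1.48. Among 166 windows of 500 bp in the gene without an exon, the highest mock count was 4 and the highest LUZP1 count was 5.

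**Figure D1:**
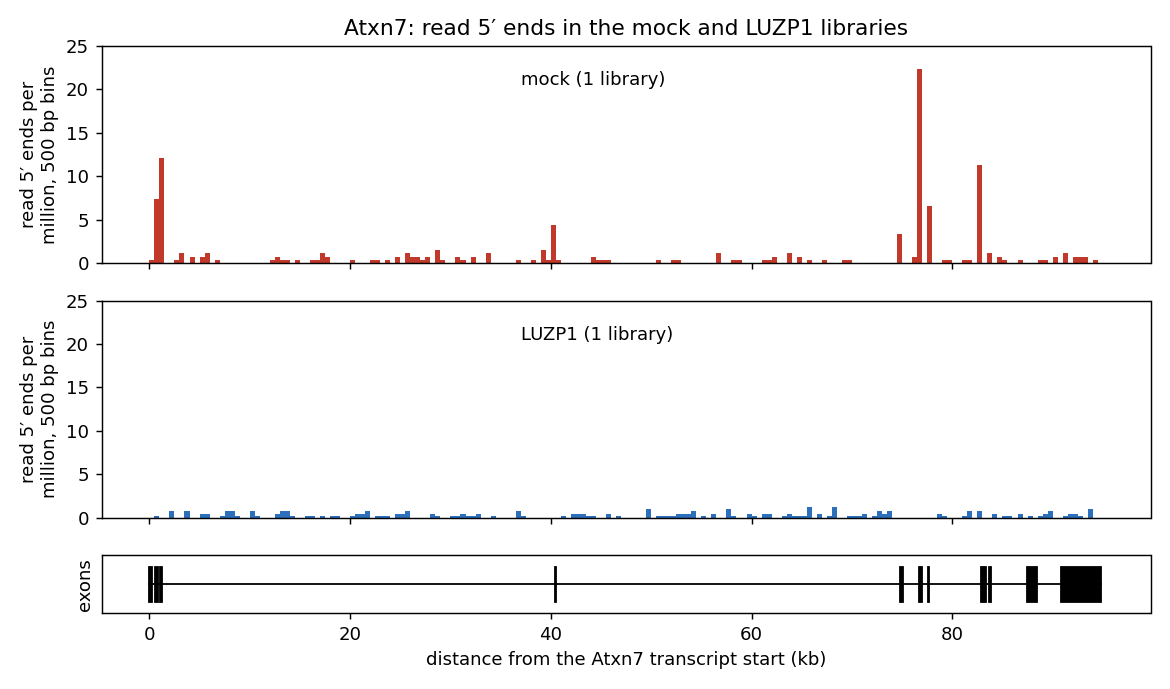
Read 5′ ends in bins of 500 bp along Atxn7, scaled to each library's total reads, as bars, for the mock library (top) and the LUZP1 library (middle), over the exons (black boxes). The mock bars stand up at exons 2 to 8 and reach 61 reads in 1 bin, while no LUZP1 bin exceeds 5 reads.

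The excess began in exon 2 and ended in exon 8. Exons 2 to 8 held 177 mock and 4 LUZP1 5′ ends in 1309 bp, or 135 and 3.06 reads per kb. Their scaled ratio was 68.2 (26.2 to 253), and their density in the mock was 108 times that of the introns (84.7 to 138). Exons 9 to 11, with 1288 bp, are nearly as long together and held 2 mock reads and 1 LUZP1 read. Their mock density was 1.24 times that of the introns (0.149 to 4.59). Exon 1, which is untranslated, held 1 mock read and 0 LUZP1 reads, and the untranslated part of exon 12 held 10 of each. Every start position in exons 1 to 11 has a 36-base sequence that occurs once in the genome, so reads from these exons could be placed. GC content was 73.1% in exon 1 and in exon 2, and 49.2% to 59.3% in exons 9 to 11. Whether it limited the reads of exon 1 was not tested.

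Among the raised exons the number of deposited reads did not follow exon length. No mock reads shared the same 36 bp, and 91.3% of the start positions in the packed runs described below were taken. The counts of these exons therefore largely reflect the width of the runs. They do not rank the exons by read abundance before repeats were removed. Exon 6, with 260 bp, held 61 mock and 0 LUZP1 5′ ends. Exon 3, with only 69 bp, held 32 and 0. Exon 8, with 245 bp, held 31 and 3. Exon 5, at 250 bp close to exon 6 in length, held 8 and 0.

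The other raised exons were exon 2 (297 bp) with 20 mock and 1 LUZP1 5′ ends, exon 7 (83 bp) with 13 and 0, and exon 4 (105 bp) with 12 and 0. Exon 3 thus had the highest density of deposited reads, 464 mock reads per kb, and exon 5 the lowest of the group, 32.0. For exons with 0 LUZP1 reads, the lower bound of the exact 95% interval is given in place of a ratio. It was 24.7 for exon 6 and 12.6 for exon 3. Exon 8 had a ratio of 15.9 (4.97 to 81.4) and exon 2 one of 30.8 (4.93 to 1280). The densities, bounds and ratios are limited by the filled start positions in the same way, and the intervals do not cover this limit. The same holds for the values of exons 2 to 8 together.

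The scaled ratios of the long introns 3 and 4 lay on either side of 1. Intron 3 held 62 mock and 70 LUZP1 5′ ends in 39263 bp, a ratio of 1.37 (0.954 to 1.95). Intron 4 held 28 and 77 in 34259 bp, a ratio of 0.560 (0.350 to 0.874), so the mock was the lower library there. The short introns 1, 2, 8 and 9 held 0 reads in both libraries. Intron 6 held 5 mock 5′ ends and 0 LUZP1 ones, and all 5 were plus-strand reads that ran on into exon 7.

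The edges of the raised stretches were sharp and the reads inside them were packed. In both libraries no deposited reads shared the same 36 bp, so each start position can hold 1 read at most. In exons 2 to 8 the mock reads formed 8 runs in which neighbouring starts lay at most 3 bp apart, each with 7 starts or more. These runs offered 195 start positions, and 178 of them (91.3%) were taken. Of the 183 mock reads that touched these exons, 97.3% belonged to a run. Outside the runs, 878 further start positions would place a read wholly inside these exons. All 878 have unique sequence, yet 5 of them held a mock read. The runs were chosen on these reads, so the contrast describes their shape. With nearly every position taken, the number of reads before repeats were removed cannot be recovered.

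The runs covered 44 to 89 bp each. The longest lay in exon 6, with 52 of 54 start positions taken, and it began 101 bp after the start of the exon and stopped 70 bp before its end. The run of exon 2 had 20 of 21 positions taken and ended 2 bp before the end of the exon, leaving its first 239 bp without a mock read. Its GC content was 53.6%, against 73.1% over the whole of exon 2. The run of exon 8 had 30 of 33 positions taken, and after it came 156 bp of exon without a mock read. The run of exon 5 had 8 of 10 taken and was followed by 159 such bp.

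The other runs lay in exon 4 (12 of 14 positions), in exon 7 (16 of 17), in exon 3 (33 of 37) and near the start of exon 6 (7 of 9). Of the edges of all 8 runs, those within 6 bp of an exon edge were few. They were the end of the exon 2 run, both edges of the exon 3 run and the start of the exon 7 run. The rest lay 18 to 239 bp inside an exon. In the coding sequence of 2601 bases, the runs lay between bases 229 and 1142. Their GC content ran from 41.2% to 53.9%. A LUZP1 read began inside a run once, in exon 8.

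Wider stretches gave more edges at exon edges. Covered bases joined over gaps of up to 50 bp, with 10 or more reads, formed 7 raised stretches in the mock, 6 of them in Atxn7 and 1 at Pgk1, and 0 in LUZP1. The number was 7 also at gaps of 25 and 100 bp. The run of exon 5, with 8 reads and edges far from those of its exon, fell short of the minimum of 10. Of the 12 edges in Atxn7, 7 lay within 6 bp of an exon edge at gaps of 50 and 100 bp, and 6 did at 25 bp. The stretch of exon 6 then ended on the last base of its exon, as did that of exon 7, and the stretch of exon 8 began 5 bp after the start of the exon. These edges in exons 6, 7 and 8 were set by lone reads outside the packed runs. The other 5 edges lay 18 to 239 bp inside an exon. The distance of 6 bp was chosen after the edges had been seen, and where an edge falls depends on whether lone reads are joined to a run.

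**Figure D2:**
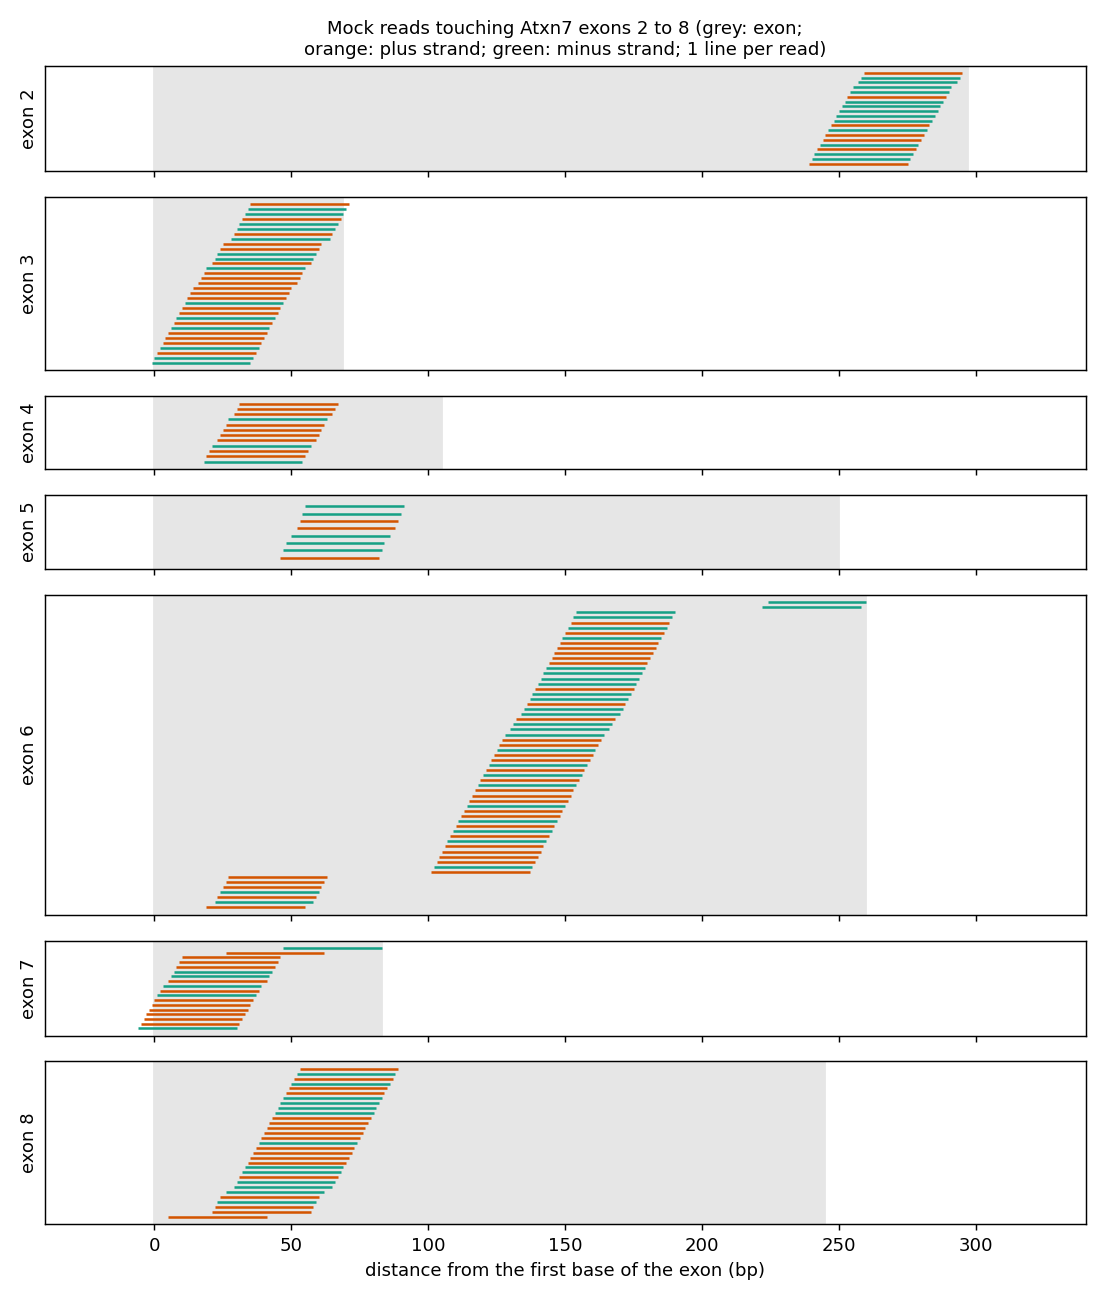
Every mock read that touches Atxn7 exons 2 to 8, as a line of 36 bp placed by its distance from the first base of the exon (grey), coloured by strand. The reads step along base by base in 8 runs, with 91.3% of the start positions in the runs taken, and they leave other parts of the same exons empty.

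Few Atxn7 reads crossed a splice site. Of the 183 mock reads touching exons 2 to 8, 9 also covered intron bases, or 4.92% (exact Clopper-Pearson 95% interval 2.27% to 9.13%). Of all start positions from which a read touches these exons, 31.5% would make it cross an edge. Over all other nuclear coding genes, 22.0% of the mock reads and 21.7% of the LUZP1 reads that touched an exon crossed an edge. The runs avoid many exon edges altogether, so this share also reflects where the runs lie.

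The crossing reads went a few bases into the intron. At exon 3 they reached up to 1 base into intron 2 and up to 2 bases into intron 3. At exon 7 they reached up to 6 bases into intron 6. A read from spliced RNA carries the end of the exon before in place of the end of the intron, and can still be aligned where the letters are alike. The last 12 bases of exon 6 and of intron 6 were compared for this reason.
end of exon 6: agagattatcag
end of intron 6: tgcttctgacag
Of the last 6 letters, 4 are the same in both. The letters hold 1 difference over the last 4 bases and a second one before these. With the 1 mismatch that the authors allowed, the likeness thus reaches 4 bases. Of the 9 crossing reads of exons 2 to 8, 2 went 5 bases or more into the intron, both at exon 7. At exon 3 the single intron base before the exon is the same as the last base of exon 2, and 1 of the 2 bases after it is the same as in exon 4. With 1 mismatch allowed, the likeness at exon 3 reaches 2 bases on either side.

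Reads also stopped exactly at exon ends. The last mock read of exon 6 and that of exon 7 each ended on the final base of the exon, with 0 bp to spare. In exon 10 the 2 mock reads crossed its edges, by 7 bases at the left and 8 at the right. Of these letters, 1 of the 7 and 5 of the 8 are those of the neighbouring exon. With 1 mismatch allowed, the likeness reaches 2 bases at the left and 4 at the right. The deposited lines give positions and no letters. Whether the reads came from the chromosomal gene, from a complementary DNA or from a construct was not tested.

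Both strands were read in Atxn7 at similar numbers, though single exons were uneven, with 9 plus and 3 minus reads in exon 4. Exons 2 to 8 held 96 plus and 81 minus mock reads, or 54.2% plus (46.6% to 61.7%). In the introns the counts were 58 and 52, or 52.7% (43.0% to 62.3%). Inside the runs the mean 5′ end of minus reads lay 31.8 to 41.0 bp to the right of that of plus reads, close to the read length of 36 bp. The runs were joined without regard to strand and span few start positions. This offset, and the sharing of bases by both strands, therefore follow largely from how a run was defined.

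The distance between opposite strands differed from that of the library. Over all mock reads, plus and minus 5′ ends lay most often 162 bp apart, at 25.6 times the background, and 36% of plus reads had a minus read 150 to 175 bp downstream. In the Atxn7 introns 21 of 58 plus reads had one, or 36.2% (24.0% to 49.9%), as in the library. In exons 2 to 8 12 of 96 did, or 12.5% (6.63% to 20.8%). All pairs of a plus and a minus 5′ end up to 400 bp apart in these exons had a median distance of 44.0 bp, or 58.0 bp over pairs 40 to 300 bp apart. Of the 1587 pairs, 3.65% lay 150 to 175 bp apart, against 41.2% over all mock reads. When distances were counted along the spliced transcript, without the introns, 50 of the 96 did, or 52.1% (41.6% to 62.4%). As a share of pairs, 7.74% of 2636 spliced pairs lay at that distance, still below the 41.2% of the library. Where reads are packed, such a partner can belong to another fragment, and the runs fix which distances can occur. These shares are therefore descriptions of the positions.

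The pattern was set against all coding genes. A gene was counted as raised when its scaled ratio was at least 3 with 1 added to both counts and it had 10 or more reads in the libraries compared. By exon reads, 117 of 9731 genes, or 1.20%, were raised in the mock and 5.54% in LUZP1. By exon over intron density in the mock, 159 of 14069 genes, or 1.13%, were raised, and 4.12% had introns raised over exons. In the LUZP1 library these shares were 0.937% and 2.50%. By both measures at once 26 of 9415 nuclear genes with introns and enough exon reads were raised in the mock, Atxn7 among them. Both measures use the mock exon reads, and the other genes of the 26 held 8 to 17 of these. Since Atxn7 was chosen for its mock excess, nothing is read from its being counted.

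Ranked by the lower bound of the mock to LUZP1 exon ratio, Atxn7 was number 1 of 20357 genes, a place that follows from its choice. The next 5 were mt-Nd2, mt-Nd1, mt-Nd6 and mt-Nd5, which encode subunits of the respiratory chain in mitochondrial DNA, and Sumf2. Their lower bounds ran from 3.01 for Sumf2 to 3.71 for mt-Nd2, below the 11.5 of Atxn7. Sumf2 rested on few reads, 13 in the mock and 1 in LUZP1. By exon to intron density in the mock, Atxn7 was number 1 of 158 genes with 20 or more mock exon reads, by its lower bound of 17.5. That density uses the same mock exon reads, so nothing is read from this place either.

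The genes most like it by that density were Gm10717, Mid1, Usp42, Mapk6 and Rap1gap2, with lower bounds of 6.01, 4.04, 2.22, 1.80 and 1.79. In Gm10717, however, the LUZP1 density ratio was 35.2 beside 34.4 in the mock, and in Mid1 it was 8.59 beside 6.25. Mapk6 had 3.12 in the mock and 1.42 in LUZP1. Among 9415 nuclear genes with introns and enough reads, 1 gene reached 8-fold (3 on the log2 scale) by both measures at once, and it was Atxn7. Both measures use the mock exon reads, and Atxn7 was chosen for their excess, so nothing is read from this. The 8-fold limit is stricter than the 3-fold of the counts above.

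**Figure D3:**
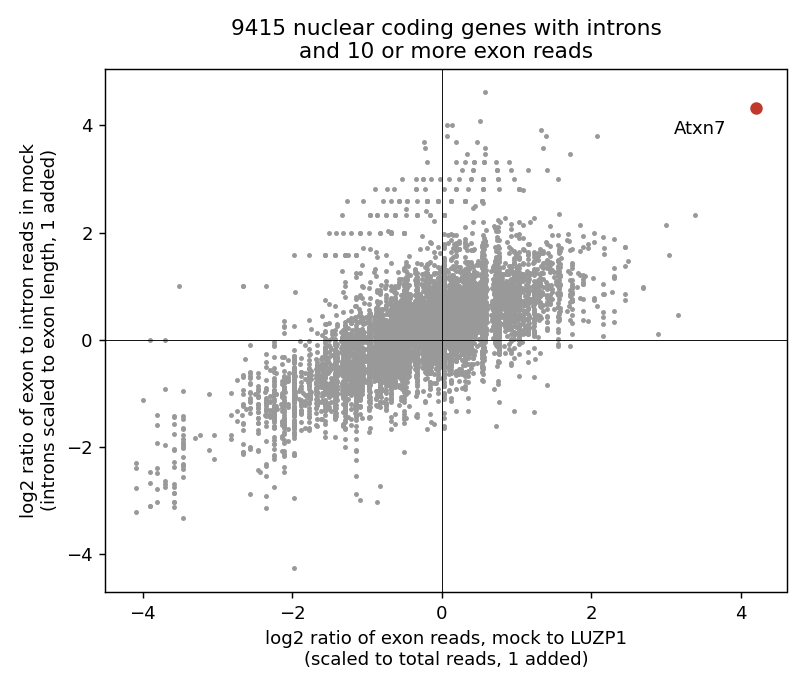
Each point is a nuclear coding gene with introns and 10 or more exon reads (9415 genes), placed by the log2 ratio of its exon reads in mock to LUZP1 and by the log2 ratio of exon to intron reads in the mock. Atxn7 lies at 4.20 and 4.32, away from the medians of -0.19 and 0.17.

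Runs of packed reads were then sought over the genome. This search was added after the reads at Atxn7 had been seen, and a run needed at least 8 starts no more than 3 bp apart. The mock library had 319 such runs, of which 219 were mitochondrial. Of the 100 nuclear ones, 7 (7.00%) had 0 LUZP1 read starts, and 6 of these 7 were in Atxn7 exons. The remaining run lay on chromosome 1 (24619923 to 24619984) outside annotated genes, with 18 starts. In the LUZP1 library 10 of 144 nuclear runs (6.94%) had 0 mock starts, and 0 of them were in Atxn7.

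Among the other subunits of SAGA with enough reads, none was past 3-fold in the mock by exon reads. Of 22 symbols all matched the annotation, Taf9 with 2 gene entries. Of 17 with enough exon reads, 1 was past 3-fold in the mock, Atxn7 itself, beside the 1.20% of all genes, and 0 were past it in LUZP1, beside 5.54% of all genes. Their median ratio was 1.07 and that of all genes tested 0.875. Kat2a, which encodes GCN5, had 10 mock and 33 LUZP1 exon reads, a ratio of 0.467 (0.205 to 0.970). Trrap, the large scaffold subunit, had 23 and 34, a ratio of 1.04 (0.586 to 1.82). Taf6l, a TAF-related subunit, had 7 and 3, a ratio of 3.60 (0.821 to 21.6) that fell below 3 with 1 added to both counts.

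The relatives of Atxn7 had few reads. Atxn7l1 held 5 mock and 5 LUZP1 exon reads, Atxn7l2 held 9 and 13, and Atxn7l3 held 7 and 10. Usp22, the deubiquitinase that works beside ataxin-7, held 9 and 8. By exon over intron density in the mock, 3 of 19 were past 3-fold, beside the 1.13% of all genes: Atxn7, Atxn7l2 and Supt7l, the last 2 with 9 and 7 exon reads and 2 and 4 intron reads. At their starts no SAGA gene reached 10 reads in the libraries together.

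At Pgk1 the mock reads lay in a block around the transcript start and nowhere else in the window. All 43 fell between 103382060 and 103382547, and the 7 LUZP1 reads were spread from 103382185 to 103383005. Over the window the scaled ratio was 9.47 (4.22 to 24.9). Within 500 bp of the start, the mock held 43 reads and LUZP1 6, a ratio of 11 (4.68 to 31.8). LUZP1 reads were themselves at 8.20 per kb in the block, above the 0.622 per kb of that library over the X chromosome.

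The block had a main part and a tail. Covered bases joined over gaps of up to 50 bp gave a stretch of 355 bp (103382060 to 103382414) with 38 mock reads and 2 LUZP1 reads, a ratio of 29.3 (7.57 to 251). It began 379 bp before the transcript start and ended just before it. A gap of 53 bp without a mock read followed, with a GC content of 79.2%, and then 5 more mock reads. Joined over gaps of up to 100 bp, the block was 488 bp long, with 43 mock and 4 LUZP1 reads, a ratio of 16.6 (6.02 to 63.5). It then reached 109 bp into the transcript and stopped 42 bp before the start codon.

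The left edge and the right edge differ in what can be read from them. To the left, 2870 bp without a mock read preceded the block, and all of the 100 start positions just before it have unique sequence. To the right, the last mock read began 73 bp after the transcript start, and from 79 bp on the sequence begins to occur more than once in the genome. Of the 142 start positions from there to the end of exon 1, 27.5% have unique sequence. Reads that might lie beyond the right edge could thus not all be placed, and this edge is not shown to be the end of the raised DNA.

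Mock reads at Pgk1 were spread more thinly than at Atxn7. In the stretch of 355 bp, 11.9% of the start positions were taken, against 91.3% in the Atxn7 runs, and at most 4 starts in a row lay within 3 bp of each other. The strands were even, with 20 plus and 23 minus mock reads in the window, or 46.5% plus (31.2% to 62.3%). The mean 5′ end of minus reads lay 94.8 bp to the right of that of plus reads in the stretch. In the block, 13 of 20 plus reads had a minus read 150 to 175 bp downstream, or 65% (40.8% to 84.6%). Over the X chromosome the share was 34.9%. By pairs the order was the other way: 17 of 282 pairs in the stretch of 355 bp (6.03%) lay at that distance, against 41.2% over all mock reads, and the median distance was 130 bp. Packed reads raise the share of reads with a partner and add pairs at every distance.

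**Figure D4:**
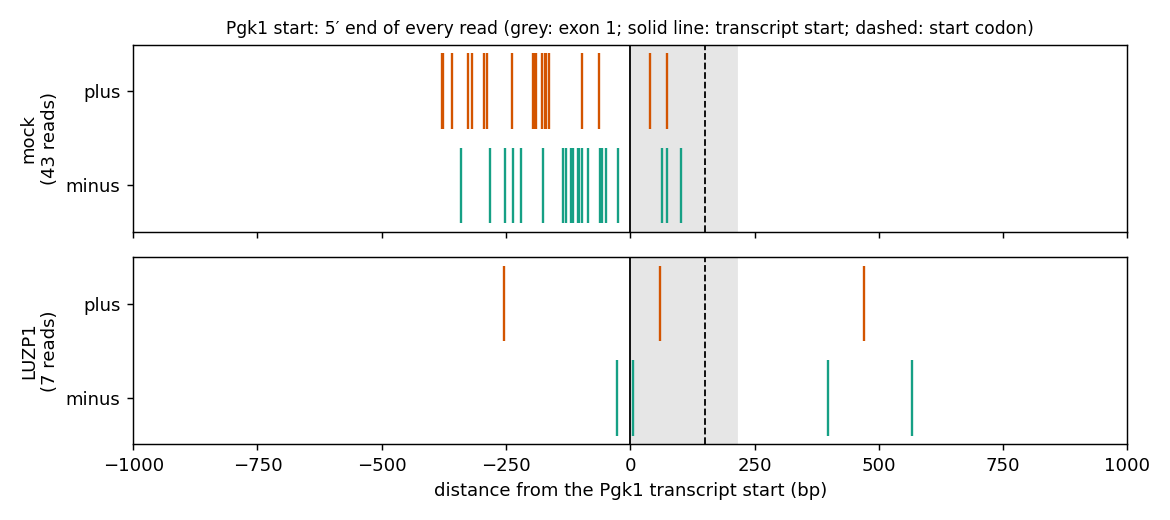
The 5′ end of each read around the Pgk1 transcript start, by strand (orange plus, green minus), in the mock (43 reads) and LUZP1 (7 reads) libraries, with exon 1 in grey and the start codon dashed. The mock 5′ ends begin 379 bp before the start and none lies past the start codon.

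The rest of Pgk1 was not raised. Its introns held 7 mock and 18 LUZP1 5′ ends in 14356 bp, a ratio of 0.599 (0.212 to 1.5). Exons 2 to 11 held 0 and 1, but 23.1% of their start positions have unique sequence, so most reads there could not be placed. The mock had 0.488 reads per kb in the introns and 0.467 over the X chromosome. Whether the block came from the chromosomal promoter or from another copy of it was not tested.

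Among all coding starts with 10 or more reads, 37 of 711, or 5.20%, were raised in the mock and 14.5% in LUZP1. By the lower bound of the ratio Pgk1, at 4.68, was number 2 of 20085 starts, a place that follows from its choice. Gm10222 was number 1, with 25 mock and 0 LUZP1 reads and a lower bound of 9.69. After Pgk1 came mt-Nd5, mt-Nd1 and mt-Nd2, with lower bounds of 4.07, 3.78 and 3.61, and Tra2a, with 10 and 0 reads and 3.45. Of the 21 genes of glycolysis, 3 had enough reads at their starts, and 1 of these, Pgk1, was past 3-fold, beside the 5.20% of all starts. Gapdh had 2 mock and 3 LUZP1 reads at its start, Aldoa 1 and 3, Eno1 4 and 6, and Pgk2, the testis copy of the gene, 1 and 2.

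By exon reads 0 of 6 glycolysis genes with enough reads were past 3-fold in the mock, beside 1.20% of all genes, and their median ratio was 1.07. By exon over intron density in the mock 1 of 15 was, Pgk1 with 5 exon and 7 intron reads, beside 1.13% of all genes. Ldha and Pgam1, with 0 exon reads each, were past it the other way, beside 4.12% of all genes.

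None of the 47 peaks that the authors listed for LUZP1 overlapped either region. The nearest were 62.6 Mb from Atxn7 and 63 Mb from the Pgk1 window.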

How the data were processed

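Each precipitation took 300 µg of chromatin, per the labels. The authors aligned reads to mm9 with Eland, allowing 1 mismatch, and called LUZP1 peaks with MACS, kept at 100 to 1000 bp and masked for repeats, per the labels. No version of these tools is stated in the labels. The deposited read files hold 1 line per mapped read, each with a count of 1, and every read is 36 bp. The deposited peak list gives positions alone.

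Read starts count from 0. At that reading 0.212% of sampled mock reads lay on a 36-base sequence occurring more than once, against 0.459% and 0.467% when shifted by 1 base either way. Reads were counted by 5′ end and scaled to total reads (mock to LUZP1 0.649). A 36-base sequence was unique if it matched NCBIM37 (mm9) once, both strands searched, and exons came from the coding transcript with the longest coding sequence in GENCODE mouse release 1 (Ensembl 65). The authors name Ensembl 57.

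With 1 library per group no test was made. Named genes were the 5 other coding genes highest by each lower bound, plus list members past the fold. Named list members below the fold, and the 1 run outside Atxn7, were picked after their values were seen. Members and lists were chosen with earlier results of these data known. The runs, the 100 bp Pgk1 block and the partner shares were added after seeing the data. Python 3.11.15, numpy 2.4.6 and scipy 1.17.1 were used. The fold call, the search for packed runs and the interval of ratios were tried on simulated data, and the other steps were not.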

Additional observations from a re-analysis of the deposited data

How the results depend on the processing

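Each group is 1 library, so no replicate could be left out. No paired analysis was possible because each group has 1 library and no result comes from a test. Where an alternative moved a value, the cause was not tested. With the coding sequence alone the Atxn7 exon ratio of mock to LUZP1 was 55.2 and the exon to intron density in the mock was 55.0. With reads placed by the midpoint of a 200 bp fragment, the density in the mock was 6.82 and the intron ratio of mock to LUZP1 1.80. The Pgk1 ratio was 29.3 in the raised stretch alone. Mock reads crossing an Atxn7 exon edge by 5 bases or more numbered 4, against 11 by 1 base or more.

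Counts of coding genes with exons raised in the mock (117) were 739 with no minimum of reads, 17 at 20 or more reads, 14 at a ratio of 5 and 180 with 0.5 added. Coding starts raised in the mock (37) numbered 1511, 8 and 6 under the first 3 of these. Genes with exons raised over introns in the mock (159) numbered 620, 59, 23 and 256. Dense nuclear mock runs without a LUZP1 read numbered 10 at 6 or more starts and 6 at 10 or more. Counting pairs once, scaling at the same GC content and scaling without mitochondrial reads gave an Atxn7 exon ratio between 19.5 and 21.5 (12.3 by midpoint) and a Pgk1 ratio between 9.43 and 10.6. An estimate of removed repeats was also run, but with the Atxn7 runs nearly full it says nothing of the stability of that ratio.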
